A study of Mus musculus with 4 samples.

Results

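The hnRNP and SR splicing regulators were taken as the 36 genes, of 25170 in the table, whose symbol begins with Hnrnp (20 genes) or Srsf (11 genes) or is Tra2a, Tra2b, Ptbp1, Ptbp2 or Ptbp3, and 1 symbol marked as a pseudogene was dropped. Levels are ribosome footprints in E14 cells, a single wild-type mouse embryonic stem cell line grown in serum with leukemia inhibitory factor on gelatin. In ribosome profiling a nuclease destroys the RNA that ribosomes do not shield, so the remaining reads of a gene follow both its mRNA and the density of ribosomes on it. 2 libraries came from cells kept for 3 passages in DMSO, the solvent, and 2 from cells kept for 3 passages in 1 µM of a compound that the labels call PD. The comparison asks what the kinase Mek contributes to gene regulation after transcription. Values are FPKM, which correct the fragments of a gene for transcript length and library size, so that levels of different genes are compared per length. Whether replicates were separate cultures is not in the labels, so p-values rest on a spread between libraries that may be technical.

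Pre-mRNA is bound by proteins that decide which exons are joined. SR proteins, named after runs of serine and arginine in their tails, typically bind enhancer sequences within exons and recruit the spliceosome, whereas hnRNP proteins coat nascent RNA and often silence exons, and many of both classes shuttle to the cytoplasm and act on export, stability and translation. SR proteins are controlled by phosphorylation of their tails, and many genes of both classes adjust their own output by including an exon that marks the transcript for decay. In embryonic stem cells these factors are known for setting splicing programmes that change on differentiation, such as the one that Ptbp1 keeps closed until neurons form.

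The libraries differed in depth, which was read from the whole-read steps in the values: relative to DMSO replicate 1, DMSO replicate 2 had 1.42, PD replicate 1 had 0.464 and PD replicate 2 had 0.201. Depth thus went with treatment, and its part in the differences below was not tested. The 6 embryonic stem cell markers were above 0 in all libraries, with Pou5f1 at 228 to 326 FPKM. Nanog had 70 and 57.1 FPKM with DMSO against 136 and 116 with PD. Zfp42 was higher in both PD libraries (52.8 and 58.4 against 67.6 and 79.8), whereas Sox2 was lower (45.5 and 44.7 against 36 and 34.6). Pou5f1, Esrrb and Dppa5a overlapped between groups, and Dppa5a was highest in PD replicate 2 (3203 against 1414 to 1633 FPKM elsewhere). The 4 primitive endoderm markers summed to 0.185 to 0.562 FPKM. The 6 neuron markers summed to 57.7 and 31.7 FPKM with DMSO against 58 and 45.7 with PD, nearly all from Tubb3, and Dcx was at 0 in every library. The 7 feeder and fibroblast markers summed to 193 and 135 FPKM with DMSO against 289 and 269 with PD, nearly all from Vim and Fn1, which stem cells can also express. Of the pair, Vim was higher with PD (105 and 29.7 against 207 and 185 FPKM), whereas Fn1 was lower (86.3 and 103 against 79.3 and 80.1). Col1a1 stayed between 0.244 and 1.12 FPKM. In such bulk lysates fewer cells of a type and less RNA per cell cannot be told apart.

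Most of these regulators were covered by footprints well above the typical gene. Of the 36 genes, 28 lay above the median of the 8863 protein-coding genes that passed the filter, a 4-library mean of 1 FPKM, and 14 lay above the 90th percentile. The 6 highest hnRNP genes, Hnrnpab, Hnrnpa2b1, Hnrnpl, Hnrnph1, Hnrnpm and Hnrnpu, made up 49.4% of the summed FPKM of the 36 genes, averaged over libraries. Among the SR genes Srsf7 was highest, with a mean of 101 FPKM over the 4 libraries, followed by Srsf1 (70.4), Srsf9 (68.9) and Srsf6 (54.4). Srsf1 and Srsf9 did not differ beyond the spread of their libraries. The lowest SR gene that was tested, Srsf10, had a mean of 2.56 FPKM.

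**Figure D1:**
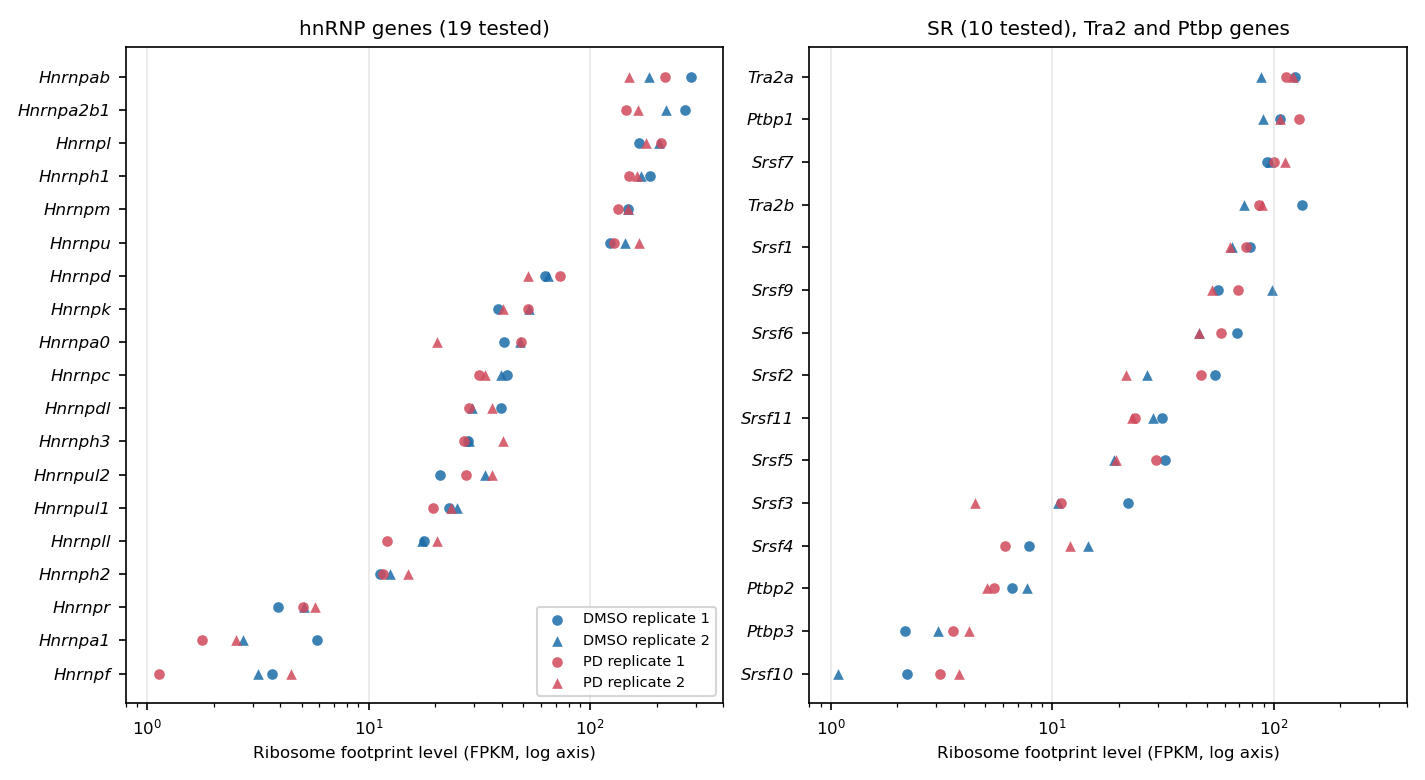
Ribosome footprint level in FPKM (log axis) of the 34 genes that passed the filter of 1 FPKM, 1 row a gene, with 1 point for each of the 4 libraries (blue DMSO, red PD, circles replicate 1, triangles replicate 2). Points of both groups are interleaved in most rows, and the rows of Srsf3, Hnrnpf, Srsf10 and Hnrnpa1 are the most spread out.

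2 genes were below the filter of 1 FPKM and were not tested. Hnrnpa3, a shuttling relative of Hnrnpa1, was at 0.394 FPKM in DMSO replicate 2, at or near 0 in DMSO replicate 1 and listed at 0 in both PD libraries. Srsf12, a relative of Srsf10, was at 0.0584 FPKM in DMSO replicate 2 and listed at 0 in the other libraries. Hnrnpa1, a factor that binds silencer elements and promotes exon skipping, was also low, at 5.82 and 2.7 FPKM with DMSO against 1.77 and 2.52 with PD. Hnrnpa1 and Hnrnpa3 are known for numerous processed pseudogenes, and the sources used here do not say how multiply matching reads were counted, so the levels of both are uncertain.

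None of the 34 tested genes passed the comparison of PD with DMSO (limma on log2(FPKM + 1), adjusted p under 0.05 over 9741 genes), where 0.257% of all tested genes passed, and none of the passing genes was protein-coding. No member reached an unadjusted p under 0.05 in limma, against 5.76% of all tested genes. With voom 0 of the 10 members with recovered reads passed. Srsf3, Hnrnpa1 and Hnrnpa2b1, which had the largest decreases, had no recovered reads and were not in that fit. Adjusted p-values of the members lay between 0.837 and 0.995. In 3 members each PD library exceeded each DMSO library, against 17.5% of all tested genes, and in 6 each lay below, against 18.3%. The lower count is near its share of 34 genes, and the higher count is below its share. The median log2 difference was -0.10 over the members and -0.02 over all tested genes. The median moved to -0.03 with quantile normalization, which put the median of all tested genes at 0.04.

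**Figure D2:**
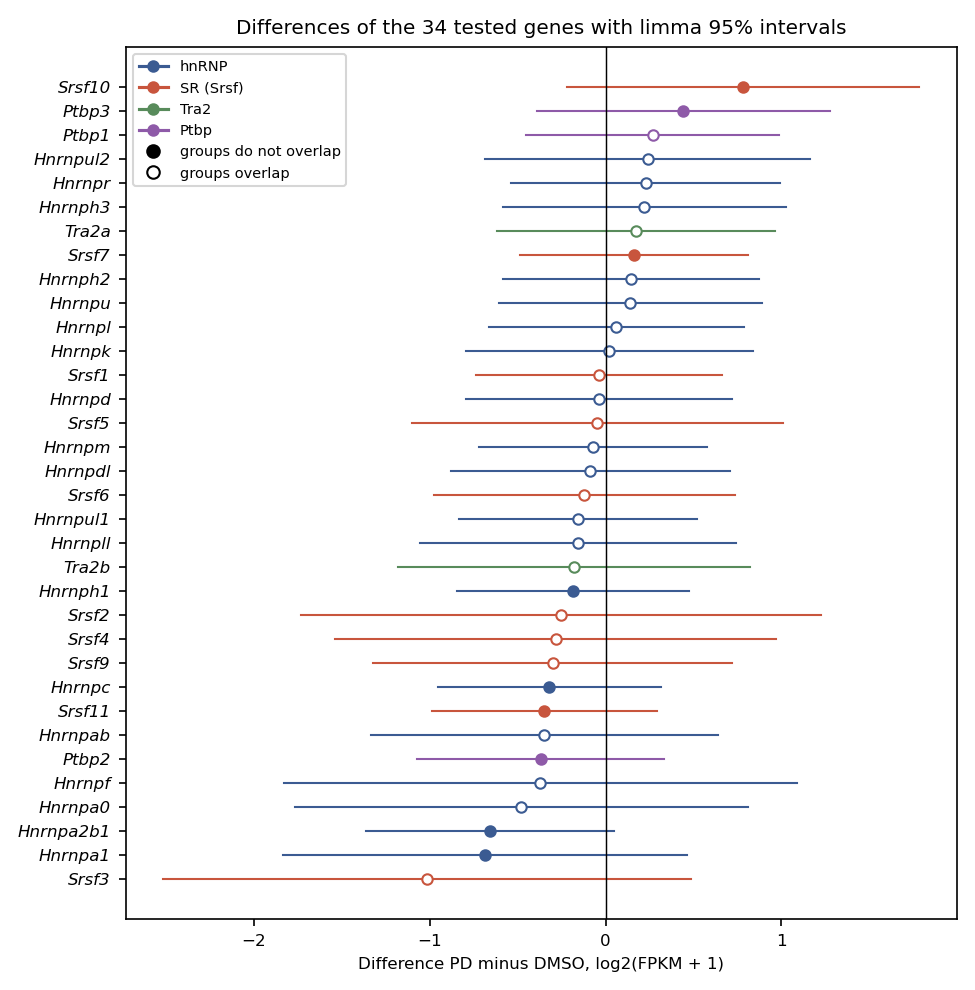
Difference PD minus DMSO in log2(FPKM + 1) for the 34 tested genes, coloured by family, with limma 95% intervals as bars. Filled points mark the 9 genes whose DMSO and PD libraries do not overlap. Every interval includes 0, from Srsf3 at -1.01 to Srsf10 at 0.78.

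The precision differed between genes. The 95% limma interval of the log2 difference reached 0.799 to each side for the median member, 0.634 for the narrowest and 1.5 for the widest. For 17 of the 34 genes the interval lay within 1 log2 unit of 0 on both sides. Hnrnpm, which binds GU-rich RNA and promotes exon skipping, stood at 148.4, 148.1, 133.8 and 148.3 FPKM in the DMSO and then the PD libraries, with an interval from -0.72 to 0.57. For Srsf2 the interval, from -1.73 to 1.23, allowed a change of over 1 log2 unit in either direction, and for Srsf3 it ran from -2.51 to 0.49.

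Among the hnRNP genes, in 4 of 19 tested each PD library lay below each DMSO library and in 0 above, against 18.3% and 17.5% of all tested genes, with a median of -0.09. Hnrnpa2b1, which packages nascent RNA and sorts mRNAs and microRNAs (mm10, chromosome 6, 51460435 to 51469894), had 268 and 221 FPKM with DMSO against 145 and 164 with PD. Both PD libraries were thus lower, with group means of 245 ± 32.8 and 154 ± 13.5 (SD, n = 2). The log2 difference was -0.66 (SE 0.26, limma adjusted p = 0.837), and its interval, from -1.36 to 0.05, was the one that came nearest to leaving out 0. Its value lay between -0.52 and -0.79 when each library was left out in turn. Hnrnpa1 had a log2 difference of -0.68 (SE 0.43). The lower edge of its DMSO libraries, 2.7 FPKM, was close to the upper edge of its PD libraries, 2.52. Hnrnpc, which binds uridine tracts in nascent RNA (chromosome 14, 52073377 to 52104021), had 42.4 and 39.5 FPKM with DMSO against 31.6 and 33.7 with PD, a log2 difference of -0.32 (SE 0.24). Hnrnph1, a regulator that recognizes runs of guanines, had 187 and 170 FPKM with DMSO against 150 and 163 with PD, a log2 difference of -0.18.

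The remaining hnRNP genes overlapped between groups. Hnrnpab, a binder of single-stranded RNA that acts in mRNA transport, with the highest mean over the 4 libraries, had 287 and 185 FPKM with DMSO against 218 and 151 with PD. In both groups replicate 1 was the higher library, and the spread within DMSO exceeded the difference between the means, 236 and 184. Hnrnpl, which binds CA repeats (chromosome 7, 28810890 to 28822266), had 167 and 206 FPKM with DMSO against 209 and 179 with PD, with a log2 difference of 0.06 (SE 0.27). Its relative Hnrnpll, known for an exon switch in lymphocytes, was lower in PD replicate 1 (12.1 FPKM) than in the other libraries (17.5 to 20.3). The nuclear scaffold protein gene Hnrnpu had 123 and 143 FPKM with DMSO against 128 and 167 with PD. Its relatives Hnrnpul1 and Hnrnpul2 had log2 differences of -0.16 and 0.24. Hnrnpd, which steers decay of mRNAs with AU-rich elements, had mean FPKM of 63.6 ± 1.14 with DMSO and 62.8 ± 14.7 with PD (SD, n = 2). Hnrnpdl, its neighbour on chromosome 5 and close relative, had 34.5 ± 7.38 and 32.4 ± 5.44 (SD, n = 2). Hnrnpk, a poly(C)-binding factor, had mean FPKM of 45.9 ± 10.4 with DMSO and 46.4 ± 8.34 with PD (SD, n = 2), a log2 difference of 0.02.

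Hnrnpa0 and Hnrnpf showed the largest gaps between libraries of the same group among the hnRNP genes. Hnrnpa0, a binder of AU-rich elements, stood at 41 and 48.2 FPKM in DMSO, 48.7 in PD replicate 1 and 20.4 in PD replicate 2. Only the shallowest library was low, from 47 recovered reads, with an exact Poisson 95% interval of 34.5 to 62.5 reads that covers counting error only. Without that library the log2 difference of Hnrnpa0 was 0.13 in place of -0.48. Hnrnpf, a relative of Hnrnph1, stood at 3.68 and 3.18 FPKM in DMSO, 1.14 in PD replicate 1 and 4.48 in PD replicate 2, so that the PD libraries lay on both sides of the DMSO libraries. Without PD replicate 1 its log2 difference was 0.31 in place of -0.37. Hnrnph2, Hnrnph3 and Hnrnpr had log2 differences of 0.15, 0.22 and 0.23 with overlapping groups.

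The summed hnRNP level was lower in both PD libraries. It made up 0.572% and 0.566% of the FPKM sum over protein-coding genes with DMSO against 0.5% and 0.491% with PD, a sum over chosen genes that was not tested. Hnrnpa2b1 and Hnrnpab carried most of this gap: their mean FPKM differed by -90.3 and -52, of -164 for the family. Without these 2 genes, chosen after their values were seen, the shares were 0.363% and 0.406% in DMSO and 0.363% and 0.372% in PD, and the groups overlapped. SR genes made up 0.168% and 0.16% in DMSO and 0.159% and 0.135% in PD, the lower DMSO library within 0.001 percentage points of the higher PD library.

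**Figure D3:**
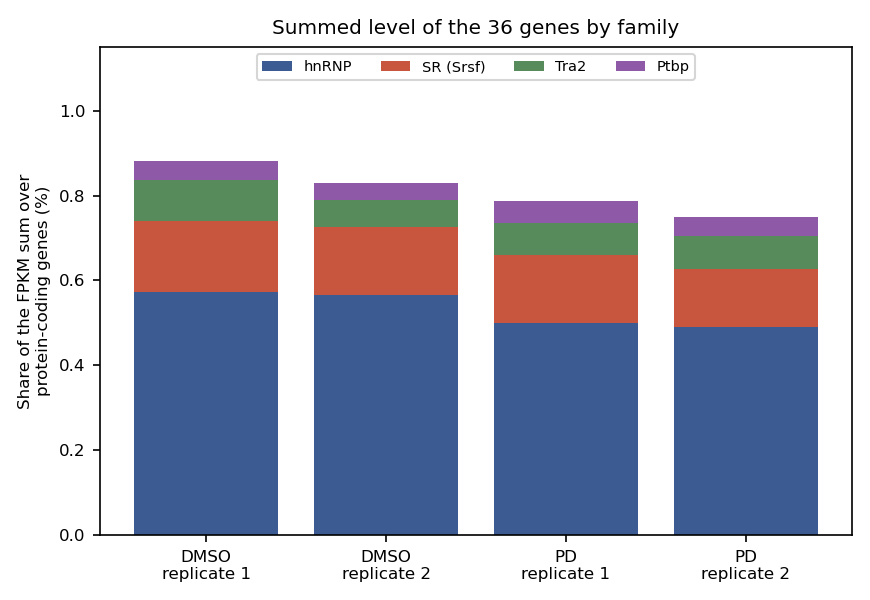
Summed FPKM of the 36 genes as a percentage of the FPKM sum over protein-coding genes, for each of the 4 libraries, stacked by family (hnRNP, SR, Tra2, Ptbp). The hnRNP part is 0.572% and 0.566% with DMSO against 0.5% and 0.491% with PD.

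Of the 10 tested SR genes, 2 were higher with PD in every library, 1 was lower and 7 overlapped, with a median log2 difference of -0.19. Both counts are near the shares of all tested genes, 17.5% and 18.3%. Srsf10, which represses splicing in its unphosphorylated form (chromosome 4, 135856071 to 135869899), had 2.22 and 1.08 FPKM with DMSO against 3.13 and 3.81 with PD. Both PD libraries were higher, with a log2 difference of 0.78 (SE 0.37, limma adjusted p = 0.837). These values rest on 26, 18, 17 and 9 recovered reads, and the exact Poisson 95% interval of the last is 4.12 to 17.1 reads. Srsf7, a shuttling relative of Srsf3 with a zinc knuckle (chromosome 17, 80200080 to 80207305), had 93.7 and 96.1 FPKM with DMSO against 99.9 and 113 with PD, a log2 difference of 0.16. Srsf11, known for microexons of neurons, had 31.2 and 28.5 FPKM with DMSO against 23.6 and 22.9 with PD, a log2 difference of -0.35 (SE 0.24).

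Srsf3, the smallest SR protein and a link to mRNA export (chromosome 17, 29032660 to 29043372), had the largest difference of any member. It stood at 22 and 10.6 FPKM with DMSO against 10.9 and 4.5 with PD, with group means of 16.3 ± 8.06 and 7.72 ± 4.55 (SD, n = 2). DMSO replicate 2 and PD replicate 1 were nearly equal, so the groups overlapped. The log2 difference was -1.01 (SE 0.56, limma adjusted p = 0.837), and the gap between the DMSO libraries alone was -0.99. Srsf3 was also the single tested member for which any 2 of the authors' deposited confidence intervals were apart, with a lower bound of 11.5 FPKM in DMSO replicate 1 and an upper bound of 7.64 in PD replicate 2.

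Other SR genes also differed more between libraries of a group than between groups. Srsf2, which marks nuclear speckles and binds exonic enhancers, had 54.1 and 26.8 FPKM with DMSO against 47.1 and 21.4 with PD. The replicate 1 libraries of both groups were the high ones, and Srsf5 (32.3, 19, 29.5 and 19.4 FPKM) and Srsf6 (68.3, 45.8, 57.7 and 45.9), which share a tandem pair of RNA-binding domains with Srsf4, were ordered likewise. Srsf4 had the opposite order, with 7.89 and 14.5 FPKM with DMSO against 6.13 and 12 with PD. Srsf1, the founding SR protein, had 77.8 and 64.9 FPKM with DMSO against 75.3 and 63.8 with PD, a log2 difference of -0.04. Srsf9, its relative with a short serine and arginine tail, was highest in DMSO replicate 2, at 98.4 FPKM, and lay at 52.5 to 68.9 in the other libraries.

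Between the DMSO libraries the median absolute log2 gap was 0.68 over the 10 tested SR genes, 0.22 over the 19 tested hnRNP genes and 0.37 over all tested genes. Between the PD libraries it was 0.35, 0.35 and 0.45. These medians are a description without a test. The gap between the DMSO libraries of the SR genes exceeded their median absolute difference between groups, 0.27. DMSO replicate 1 was the higher DMSO library in 7 of the 10 SR genes, and PD replicate 1 the higher PD library in 7 of 10, against 50.6% and 49.8% of all tested genes.

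**Figure D4:**
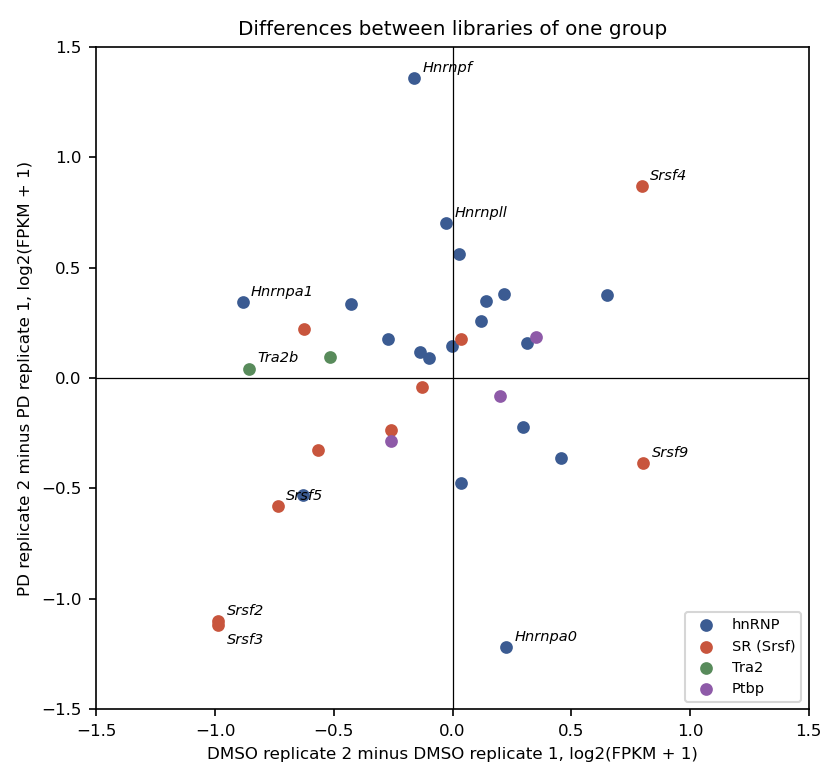
Difference between the libraries of 1 group in log2(FPKM + 1), DMSO on the horizontal and PD on the vertical axis, replicate 2 minus replicate 1, for the 34 tested genes by family. Srsf2 and Srsf3 lie near -1 on both axes and Srsf4 above 0.7 on both, whereas Hnrnpa0 and Hnrnpf stand apart on the PD axis only.

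Tra2a and Tra2b, SR-like activators that bind purine-rich exonic enhancers, were both among the 10 members with the highest mean over the 4 libraries. Tra2a (chromosome 6, 49243921 to 49264052) had 125 and 87.2 FPKM with DMSO against 114 and 122 with PD, with a log2 difference of 0.17. Tra2b (chromosome 16, 22244552 to 22266005) had 134 and 73.3 FPKM with DMSO against 86 and 88.6 with PD, with a log2 difference of -0.18. For both genes the DMSO libraries lay on both sides of the PD libraries. The ratio of Tra2a to Tra2b, in which library scaling cancels, was 0.938 and 1.19 with DMSO against 1.33 and 1.38 with PD. It was higher in both PD libraries and was not tested, and how often other pairs of genes stand apart was not computed.

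The polypyrimidine tract binding proteins repress exons, and Ptbp2 takes the place of Ptbp1 as neurons form. Ptbp1 (within a joined locus on chromosome 10, 79697305 to 80369637) had 107 and 89.3 FPKM with DMSO against 130 and 107 with PD. PD replicate 2 lay just below DMSO replicate 1, and the log2 difference was 0.27 (SE 0.27, limma adjusted p = 0.871). The authors' deposited interval of Ptbp1 began at 0 in every library and ended at 218 to 316 FPKM. Ptbp2 (chromosome 3, 119718742 to 119783388) had 6.56 and 7.67 FPKM with DMSO against 5.45 and 5.09 with PD, lower in both PD libraries by 0.37 on the log2 scale (SE 0.26, limma adjusted p = 0.837). The ratio of Ptbp1 to Ptbp2 was 16.3 and 11.6 in DMSO and 23.9 and 21 in PD, without overlap and not tested. This ratio carries the uncertainty of the Ptbp1 level. Among single tested genes 35.8% did not overlap between groups, and no such share was computed for pairs. Ptbp3, the third relative, had 2.17 and 3.05 FPKM with DMSO against 3.57 and 4.19 with PD, a log2 difference of 0.44 (SE 0.31). Of the neuron markers, Dcx was at 0 in all libraries, and Elavl3 and Elavl4 were below 0.6 FPKM with DMSO and at 0 with PD. Map2 had 0.289 and 0.918 FPKM with DMSO against 1.14 and 0.341 with PD. Rbfox3 was above 0 only in PD replicate 1, at 0.222 FPKM. Tubb3, which many cells express, had 56.5 and 30 FPKM with DMSO against 56.7 and 45.3 with PD.

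For 2 other pairs of relatives the ratios overlapped between groups. Hnrnpl to Hnrnpll stood at 9.38 and 11.8 in DMSO and 17.3 and 8.81 in PD, and Hnrnpd to Hnrnpdl at 1.58 and 2.2 in DMSO and 2.57 and 1.45 in PD. Hnrnph1 to Hnrnph2 stood at 16.6 and 13.5 in DMSO and 12.9 and 10.8 in PD, lower in both PD libraries. Srsf7 to Srsf3 stood at 4.26 and 9.05 in DMSO and 9.13 and 25.1 in PD, where DMSO replicate 2 and PD replicate 1 were nearly equal. None of these ratios was tested. The pairs, with those of the Tra2 and Ptbp genes, were not among the comparisons fixed beforehand. The share of other gene pairs that stand apart was not computed.

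**Figure D5:**
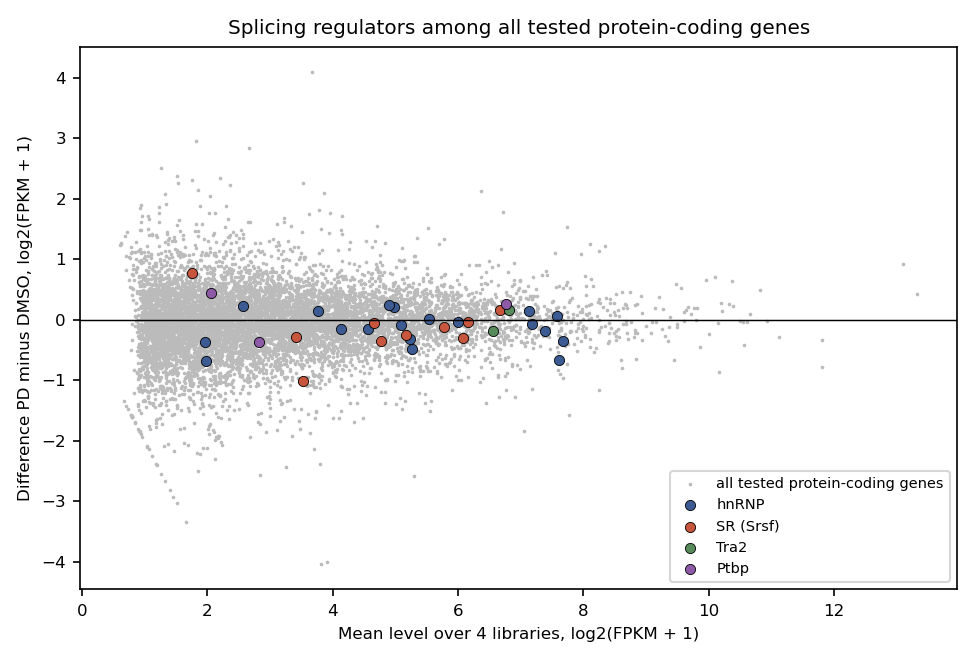
Difference PD minus DMSO against the mean level over the 4 libraries, both in log2(FPKM + 1), for the 8863 tested protein-coding genes (grey) and the 34 tested regulators (coloured by family). The regulators lie within the cloud of all genes, between -1.01 and 0.78.

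Genes that act with these regulators did not pass either. Of 18 tested genes in a list of proteins of the hnRNP type under other names, 0 passed in limma. In limma 1 had an unadjusted p under 0.05, as did 5.76% of all tested genes. The list also holds RNA-binding proteins of other families, Msi1, Msi2, Celf1, Elavl1, Fubp1 and Fubp3. In every library 2 were higher and 9 lower with PD, against 17.5% and 18.3% of all tested genes, so the lower count is above its share. Msi1, Msi2 and Fubp3 are among the lower ones, and the median of the list was -0.25. Msi1, an RNA-binding protein of stem cells, had 3.36 and 3.95 FPKM in DMSO, 2.07 in PD replicate 1 and 0 in PD replicate 2, and its relative Msi2 had 1.86 and 3.94 in DMSO and 1.26 and 0.855 in PD. Pcbp2, a poly(C)-binding protein and the 1 gene with an unadjusted p under 0.05, went the other way, at 108 and 119 FPKM with DMSO against 194 and 181 with PD (log2 difference 0.72, SE 0.24, limma adjusted p = 0.825). Of 20 tested SR-related proteins and cofactors, a list that also holds Ncl and Npm1, 0 passed. In both PD libraries 1 was higher and 5 were lower (17.5% and 18.3% of all tested genes), with a median of -0.12. U2af2 and Sfswap were the lowest (-1.01 and -0.70). U2af2, which recognizes the polypyrimidine tract at the 3' splice site, was at 53.7 and 36.4 FPKM in DMSO and 43.8 in PD replicate 1, and only PD replicate 2, at 10.2, was low. Sfswap was at 5.15 and 5.26 FPKM in DMSO and just below them in PD replicate 1, at 5.03. Its difference came mainly from PD replicate 2, at 1.4 FPKM.

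A list of kinases, phosphatase subunits, importins and methyltransferases of SR and hnRNP proteins, which also holds Nxf1, had 17 tested genes. Of these 0 passed, 3 were higher and 1 was lower in both PD libraries (17.5% and 18.3% of all tested genes), with a median of 0.04. Clk4, a nuclear kinase of SR tails, had 9.46 and 7.98 FPKM with DMSO against 5.06 and 5.51 with PD (log2 difference -0.63, SE 0.26, limma adjusted p = 0.837). Srpk2, a kinase of SR tails in the cytoplasm, had 1.05 and 3.57 FPKM with DMSO against 1.59 and 5.06 with PD. Of 15 tested genes in a list of other splicing regulators, 0 passed in limma and 1, Esrp1, had an unadjusted p under 0.05. The list mixes regulators of particular tissues with others such as Sfpq, Nono and Rbm39. Its members Rbfox1, Rbfox3, Mbnl1, Mbnl2, Mbnl3, Nova1, Nova2 and Rbm10 were below the filter and not tested. In this list 3 were higher and 3 lower in both PD libraries (17.5% and 18.3% of all tested genes), with a median of -0.02. Esrp1, the epithelial splicing regulator, had 11.5 and 5.29 FPKM with DMSO against 1.87 and 0.922 with PD, a log2 difference of -1.91 (SE 0.47, limma adjusted p = 0.766), and Esrp2 had one of -0.80. These 4 lists hold genes chosen by function, with earlier results of these data known.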

How the data were processed

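The authors deposited 1 Cufflinks-style table that gives each library's FPKM, its confidence bounds and its status, per the file headers. FastQC, Trimmomatic, Bowtie2, STAR, Cufflinks and the build mm10 are named in the submitters' processing notes, without versions. 1 gene with a failed status was left out, and 1 was added to the deposited starts. Here limma 3.58.1 (R 4.3.3; lmFit, trended eBayes, 2 residual degrees of freedom) was run on log2(FPKM + 1) of the 9741 genes whose mean reached 1 FPKM, with Benjamini-Hochberg adjustment over all of them and 0.05 as threshold. Fold changes on this scale understate those of low genes. Whole reads were recovered from the FPKM steps (tolerance 0.02 reads) for 70.4% of 10161 genes above 0 in all libraries, against 0.472% to 1.85% in 20 draws of wrong steps, and for 10 members. They are the smallest whole numbers that fit. Members shown with every library are the 4 highest hnRNP and SR genes, the Tra2 and Ptbp genes, up to 4 non-overlapping genes per direction with the largest differences and genes below the filter; further members were added after their values were seen. Proteins that the rule also asked for were not used here. The members and lists were chosen with earlier results of these data known.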

Additional observations from a re-analysis of the deposited data

How the results depend on the processing

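None of the tested members passed under any setting run: pseudocounts of 0.5 and 5, no filter or a filter of 5 FPKM, quantile normalization, rescaling to the protein-coding sum, median-ratio scaling, protein-coding genes only, voom on recovered reads, the replicate block, and each library left out in turn. Over all genes 25 passed, against 0 with protein-coding genes only, 0 in the rescaled table, 0 with voom, and 0 to 47 when a library was left out (0 without either DMSO library, 47 without PD replicate 2). In limma these settings had 606, 622 and 349 genes at an unadjusted p under 0.05, and all genes as deposited had 561. The members' median of -0.10 was -0.028 with quantile normalization and -0.132 with rescaling, where the median of all tested genes was -0.056. It ranged from -0.13 to -0.055 with a library left out, lowest without DMSO replicate 2 and highest without PD replicate 2. The 3 members higher in both PD libraries became 1 with a filter of 5 FPKM, which drops Ptbp3 and Srsf10. They became 2 with rescaling, 4 with median-ratio scaling and 5 with quantile normalization. With voom they became 1 of 10, where only Srsf10 of these had recovered reads. The 6 members lower in both PD libraries became 8 with rescaling and 7 of 36 with no filter, against 20.5% and 18.3% of all tested genes. With quantile normalization they became 4, against 15.7%. None of the 6 lower ones had recovered reads, so voom could not count them, and 0 of its 10 members were lower. With 3 libraries, where fewer must stand apart, these counts were 7 to 10 higher and 10 to 16 lower, against 29.8% to 35.9% and 31.4% to 38.6% of all tested genes. 14 members kept their direction in every setting in which they were tested: Hnrnpa1, Hnrnpa2b1, Hnrnpab, Hnrnpc, Hnrnph1, Hnrnpr, Hnrnpul1, Ptbp1, Ptbp2, Ptbp3, Srsf3, Srsf7, Srsf10 and Srsf11. Quantile normalization turned Hnrnpd (0.046), Hnrnpdl (0.0036), Hnrnpm (0.0027), Srsf1 (0.061) and Srsf5 (0.028), and rescaling turned Hnrnpk (-0.0093). Leaving out a library turned 20 members, whose log2 differences then ranged as follows: Hnrnpa0 from -1.09 to 0.13, Hnrnpd from -0.27 to 0.20, Hnrnpdl from -0.30 to 0.13, Hnrnpf from -1.05 to 0.31, Hnrnph2 from -0.029 to 0.32, Hnrnph3 from -0.060 to 0.50, Hnrnpk from -0.21 to 0.25, Hnrnpl from -0.088 to 0.21, Hnrnpll from -0.51 to 0.20 and Hnrnpm from -0.15 to 0.00094. The range was -0.050 to 0.33 for Hnrnpu, -0.085 to 0.57 for Hnrnpul2, -0.16 to 0.093 for Srsf1, -0.80 to 0.30 for Srsf2, -0.72 to 0.15 for Srsf4, -0.41 to 0.32 for Srsf5, -0.40 to 0.16 for Srsf6, -0.70 to 0.10 for Srsf9, -0.087 to 0.43 for Tra2a and -0.61 to 0.25 for Tra2b. The cause of these turns was not tested. Deviations of same-numbered libraries from their group means correlated at 0.0992 across all tested genes and at 0.204 across the protein-coding ones. Genes are not independent replicates, and with 2 pairs it cannot be told whether same-numbered libraries share more than a number. With the replicate block 19 genes and 0 members passed (limma). PD replicate 2 was the shallowest library, at 0.201 of the depth of DMSO replicate 1, and the part of depth was not tested.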

Other observations

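RefSeq lists noncoding transcript models beside the coding ones for 18 of the 36 regulators, or 50%, against 22.9% of the 8863 tested protein-coding genes. By family these were 10 of 20 hnRNP genes, 6 of 11 SR genes, 0 of 2 Tra2 genes and 2 of 3 Ptbp genes. Srsf11 had 14 such models and Hnrnpa2b1 had 12. The share describes the annotation and was not tested. FPKM of a gene pool its transcripts, so the levels above do not show which of them the ribosomes were on. The dropped pseudogene symbol, Hnrnpa1l2-ps2, had 0.448 and 0.317 FPKM with DMSO against 0 and 1.11 with PD.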
